A study of Mus musculus with 18 samples.

Results

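Levels of 9 genes for transcription factors that act together in muscle were followed in C2C12 cells, a mouse myoblast line: the MEF2 genes Mef2a, Mef2c and Mef2d, the TEAD genes Tead1, Tead2, Tead3 and Tead4, and the partner genes Klf5 and Pitx3. They were chosen by name, as the 9 rows of these genes among 50600 gene identifiers, and all 9 passed the filter on low counts that left 13939 genes for testing. The study holds 3 stable C2C12 lines: 1 given a control plasmid, 1 given px459-Mapk6sg and labelled as depleted of ERK3, and 1 given px459-Mk5sg and labelled as depleted of MK5. Mapk6 encodes ERK3, a MAP kinase of the atypical kind, Mapkapk5 encodes MK5, a kinase that ERK3 binds, and px459 is a plasmid that carries Cas9 and a guide. Each line was sequenced as dividing cells kept in growth medium, called GM, and on day 2 of culture in differentiation medium, called DM2. Each of the 6 groups had 3 libraries, 18 in all. Mef2c gave 0 to 8 reads in each GM library and 35 to 147 in each DM2 library, so it passed the filter through DM2 alone. Its calls from GM to DM2, counted below in all 3 lines, are therefore not independent of that filter. The labels do not say whether a line is 1 clone, nor whether the 3 libraries of a group came from separate cultures, so a p-value here measures the spread between these libraries, which may be technical.

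MEF2 proteins are MADS-box factors that bind A/T-rich sites in muscle genes and act with the myogenic factors MyoD and myogenin. Class IIa histone deacetylases hold them in check, and kinases of the p38 and calcium pathways release or activate them. TEAD proteins bind the MCAT element of muscle promoters and depend on partners for activation: YAP, TAZ (encoded by Wwtr1) and the vestigial-like proteins. Klf5 encodes a Kruppel-like zinc finger factor that acts beside MyoD and MEF2 in myoblast differentiation, and Pitx3 encodes a homeodomain factor of developing muscle that has been tied to its redox state.

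The libraries held 17474562 to 23423050 reads counted in genes. Reads outside genes made up 2.40 to 3.22% of reads in GM and 2.44 to 3.05% in control DM2, against 3.79 to 7.73% in ERK3-depleted and 2.84 to 4.11% in MK5-depleted DM2, so 5 of the 6 depleted DM2 libraries lay above all others. In both depleted DM2 groups library 3 had the fewest. Mapk6 was not lower in ERK3-depleted than in control GM beyond the test (105 to 133 against 119 to 150 CPM, reads scaled to library size; adjusted p = 0.464, edgeR) and was lower at DM2 (96.8 to 136 against 204 to 219 CPM; log2 fold change -0.855 ± 0.121 SE, adjusted p = 2.18e-05). It was also lower in MK5-depleted than in control DM2 (-0.40 ± 0.12, adjusted p = 0.0115, edgeR). Mapkapk5 gave only 11 to 32 reads a library in the strand counts (adjusted p = 0.232 for MK5-depleted against control in GM and 0.0443 at DM2). On the deposited TPM it stood at 30.9 to 35.65 in MK5-depleted against 52.8 to 59.4 in control GM, and at 42.0 to 58.0 against 65.6 to 71.7 at DM2, with no overlap in either medium. With ERK3 depleted it stood at 55.2 to 63.1 TPM in GM, above the MK5-depleted libraries. At DM2 it stood at 45.25 to 66.0 TPM with ERK3 depleted, overlapping the MK5-depleted libraries, so the lower DM2 level was not particular to the MK5-depleted line. TPM is not scaled between libraries, and at DM2 the median of all genes was lower on it in both depleted lines, as given below. The DM2 values of Mapkapk5 on TPM can therefore not be told apart from that shift. The 12 muscle markers summed to 1408 to 1779 CPM in control GM and 5179 to 5410 CPM in control DM2, while 7 of 8 endothelial markers stayed under 1 CPM in every library. Fibroblast markers summed to at least 7364 CPM in each library, with Thy1 under 1 CPM.

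On GRCm38, Mef2a lies on the minus strand of chr7:67231163-67372858, Mef2c on the plus strand of chr13:83504034-83667080 and Mef2d on the plus strand of chr3:88142372-88172086. Tead1 lies at chr7:112679318-112906807, Tead2 at chr7:45215753-45233644, Tead3 at chr17:28331671-28350817 and Tead4 at chr6:128224288-128300823, with Klf5 at chr14:99298691-99315036 and Pitx3 at chr19:46135685-46148326. The promoters of the 3 MEF2 genes are printed, since their values in each group are described first among the results. RefSeq (GRCm38.p6) gives a window from 250 bases before to 50 bases after a start for 6 of the 9 genes. Both strands of these windows were searched for the MEF2 site (an A/T-rich motif of 10 bases), the MCAT element (CATTCC or its complement GGAATG), the E-box (CANNTG, which includes CAGCTG) and the CArG box. Capitals mark the matches, positions count from the start, and each sequence reads 5′ to 3′ on the gene's strand.
Mef2a, chr7:67372851-67372958, minus strand, bases -100 to 8: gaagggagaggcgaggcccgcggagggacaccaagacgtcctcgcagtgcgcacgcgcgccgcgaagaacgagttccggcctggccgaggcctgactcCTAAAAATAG
Mef2d, chr3:88142272-88142371, plus strand, bases -100 to -1: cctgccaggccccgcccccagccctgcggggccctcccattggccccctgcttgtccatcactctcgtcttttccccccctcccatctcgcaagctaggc
Mef2c, chr13:83503784-83504033, plus strand, bases -250 to -1: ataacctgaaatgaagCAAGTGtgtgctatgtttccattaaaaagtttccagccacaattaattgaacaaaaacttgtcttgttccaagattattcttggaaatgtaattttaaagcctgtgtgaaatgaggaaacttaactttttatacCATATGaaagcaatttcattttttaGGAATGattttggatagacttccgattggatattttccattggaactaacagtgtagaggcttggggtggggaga
Mef2a carries a MEF2 site, CTAAAAATAG, across its start at bases -2 to 8, and 3.19% of 32851 promoter windows hold such a site. Mef2d has no match to any of these motifs in its window. The Mef2c window printed, the first of 3, has an MCAT element at bases -75 to -70 (14.7% of windows hold one) and 2 E-boxes, CAAGTG and CATATG (72.3% of windows hold one). Another Mef2c window has 1 E-box, CAGATG. One of the 3 Tead3 windows has 3 MCAT elements and another has 1. The Tead2 window has no match, and the Pitx3 window has E-boxes at bases -180 to -175 and -151 to -146. A match is a string of letters and shows no binding.

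On the deposited TPM, a per-length scale on which genes can be compared, Tead2 was the most abundant of the 9 genes in control GM (63.9 ± 3.67 TPM, SD, n = 3). Mef2a followed (29.6 ± 2.94 TPM), then Mef2d (20.6 ± 1.01 TPM) and Tead3 (20.3 ± 2.03 TPM), whose libraries overlapped, then Tead1 (16.98 ± 0.538 TPM) and Klf5 (10.3 ± 0.926 TPM). Pitx3 (3.67 ± 1.40 TPM) and Tead4 (3.10 ± 0.490 TPM) overlapped, and Mef2c was near 0 (0.050 ± 0.061 TPM). After 2 days in differentiation medium the order in the control line had changed. Mef2a led at 98.7 ± 4.90 TPM, ahead of Tead2 (54.4 ± 7.05 TPM), Klf5 (54.3 ± 5.68 TPM) and Mef2d (51.3 ± 3.62 TPM), which overlapped each other. Tead3, Tead1 and Tead4 overlapped in turn between 24.03 and 28.2 TPM on average, with Pitx3 (3.84 TPM) and Mef2c (1.22 TPM) last. In both depleted lines Tead2 had the highest mean at DM2, at 52.5 ± 11.01 TPM with ERK3 depleted, where it overlapped Mef2a (36.5 ± 13.1 TPM), and at 65.9 ± 7.55 TPM with MK5 depleted, where it stood apart from Mef2a (39.5 ± 2.28 TPM).

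**Figure D1:**
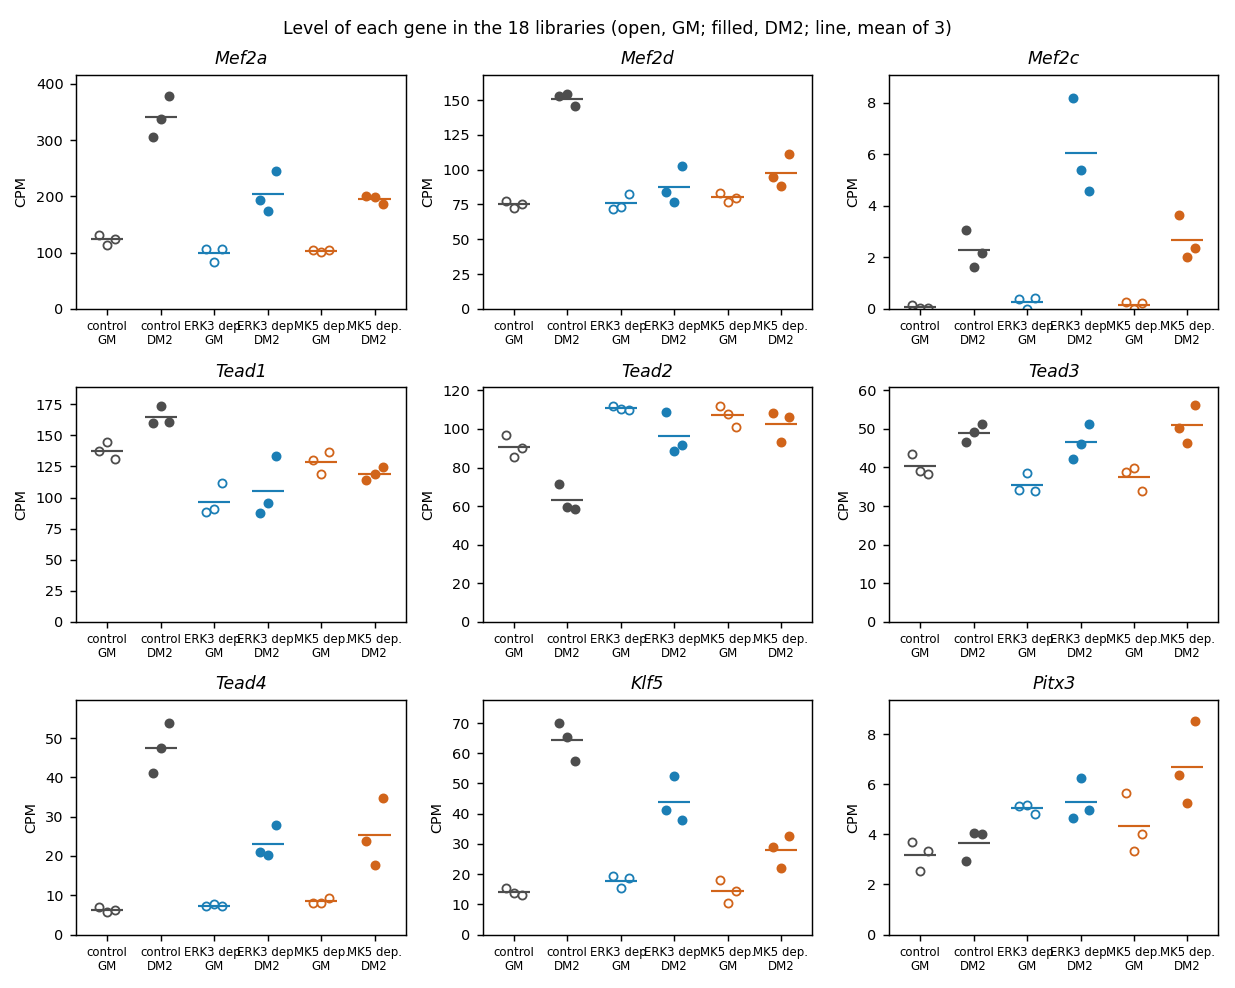
Level of each of the 9 genes in CPM (reads scaled to library size) in the 18 libraries, with open points for GM, filled points for DM2 and a line at the mean of 3. Mef2a, Mef2d, Tead4 and Klf5 are highest in control DM2, where no library overlaps a depleted DM2 library, while Tead2 is lowest there.

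How differentiation medium changed these genes was asked first in the control line. Mef2a, Mef2c, Mef2d, Tead3, Tead4 and Klf5 rose and Tead2 fell, 7 of 9 genes called at an adjusted p under 0.05 (edgeR quasi-likelihood test, Benjamini-Hochberg over all tested genes), where 45.6% of all tested genes were called (22.5% higher and 23.1% lower). Their median log2 fold change was 1.01, against -0.02 over all tested genes. In bulk RNA, fewer cells expressing a gene and less RNA per cell cannot be told apart.

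Mef2a stood at 131, 114 and 124.5 CPM in control GM and at 305, 338 and 378 CPM in control DM2. All DM2 libraries lay above all GM libraries, a 2.76-fold rise (log2 fold change 1.47 ± 0.12 SE, adjusted p = 1.66e-08, edgeR). Mef2d stood at 77.3, 72.3 and 75.55 CPM in GM and at 153, 155 and 146 CPM in DM2. It was 2.01-fold higher, again with no overlap (log2 fold change 1.01 ± 0.10, adjusted p = 2.71e-07, edgeR). Mef2c, the family member most tied to terminal muscle differentiation, gave 5 reads in the 3 control GM libraries together and 143 in the 3 DM2 libraries. The ratio of the depth-scaled sums was 27.85, with an exact 95% interval of 11.7 to 87.1 that covers counting error only, and edgeR gave a log2 fold change of 4.69 ± 0.68 (adjusted p = 2.19e-05).

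Tead4, a TEAD gene that is itself a target of the myogenic factors, stood at 7.09, 5.80 and 6.21 CPM in control GM and at 41.0, 47.5 and 53.9 CPM in control DM2. The groups were far apart, a 7.465-fold rise (log2 fold change 2.90 ± 0.20, adjusted p = 3.02e-09, edgeR). Tead2, the TEAD gene of dividing and embryonic cells, went the other way: it stood at 96.8, 85.4 and 90.0 CPM in GM and at 71.6, 59.6 and 58.3 CPM in DM2. No library overlapped and Tead2 fell 1.44-fold (log2 fold change -0.52 ± 0.10, adjusted p = 0.000217, edgeR), a call that ends on the unscaled TPM (-0.23 on the log2(TPM + 1) scale, adjusted p = 0.193, limma). Tead3 rose 1.22-fold (log2 fold change 0.28 ± 0.10, adjusted p = 0.021, edgeR), and lost its call without control GM library 2 or 3 or control DM2 library 2 or 3 (adjusted p = 0.0552 to 0.0838, edgeR) and with length and GC offsets (0.109). Tead1 did not pass the test (131 to 145 CPM in GM and 160 to 174 CPM in DM2; log2 fold change 0.26 ± 0.12, adjusted p = 0.0954, edgeR), although its 3 DM2 libraries lay above its 3 GM libraries. It passed when only the control libraries entered the fit (adjusted p = 0.00283), without a filter on low counts (0.0392), on log2(TPM + 1) (0.0164, limma), with reads outside genes as a covariate (0.0403) and without ERK3-depleted DM2 library 3 (0.0183).

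Among the partners, Klf5 stood at 15.25, 13.6 and 13.0 CPM in control GM and at 70.2, 65.3 and 57.6 CPM in control DM2. It rose 4.61-fold with no overlap (log2 fold change 2.21 ± 0.18, adjusted p = 2.16e-08, edgeR). Pitx3 was low in both media (2.55 to 3.68 CPM and 2.95 to 4.04 CPM) and its groups overlapped (log2 fold change 0.21 ± 0.23, adjusted p = 0.479, edgeR).

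In the ERK3-depleted line 5 of the 9 genes rose from GM to DM2 and none fell, where 55.1% of all tested genes were called (28.9% higher and 26.2% lower). In the MK5-depleted line 7 rose and none fell, where 49.3% were called (24.6% higher and 24.8% lower). Mef2a, Mef2c, Tead3, Tead4 and Klf5 rose in both lines, and Mef2d and Pitx3 also rose in the MK5-depleted line. Mef2a rose 2.08-fold with ERK3 depleted and 1.898-fold with MK5 depleted (adjusted p = 1.02e-06 and 5.06e-06, edgeR), and Tead4 rose 3.14-fold and 3.01-fold (adjusted p = 2.77e-06 and 3.56e-06). Klf5 rose 2.45-fold and 1.93-fold (adjusted p = 1.05e-05 and 0.000302). The Tead3 calls ended on the log2(TPM + 1) scale (0.06 with ERK3 depleted and 0.25 with MK5 depleted, adjusted p = 0.755 and 0.176, limma). For Mef2c the ratio of summed reads was 22.9 with ERK3 depleted (314 reads in DM2, 15 in GM; exact 95% interval 13.7 to 41.4) and 16.95 with MK5 depleted (148 reads and 10 reads; 8.96 to 36.1). These intervals, too, cover counting error only.

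Mef2d moved least of the 3 MEF2 genes in the depleted lines. With ERK3 depleted it stood at 71.4, 73.5 and 82.2 CPM in GM and at 83.7, 77.1 and 103 CPM in DM2. These groups overlapped and the change did not pass the test (log2 fold change 0.22 ± 0.10, adjusted p = 0.0789, edgeR). It passed with the replicate number as a block (0.21, adjusted p = 0.0462), with reads outside genes as a covariate (0.51, adjusted p = 0.00199) and without the 4 DM2 libraries richest in such reads (0.44, adjusted p = 0.00225), which leaves 1 library in each depleted DM2 group, and was -0.0092 on unstranded counts. With MK5 depleted it stood at 83.6, 76.8 and 79.8 CPM in GM and at 94.6, 88.1 and 111 CPM in DM2, with no overlap (log2 fold change 0.29 ± 0.10, adjusted p = 0.0236, edgeR). This call was lost without MK5-depleted GM library 2 or 3 or DM2 library 3 (adjusted p = 0.0797, 0.0623 and 0.207) and with length and GC offsets (0.125). Pitx3 in the MK5-depleted line (3.35 to 5.65 CPM in GM, 5.24 to 8.53 CPM in DM2) overlapped between media, and its call (log2 fold change 0.62 ± 0.21, adjusted p = 0.0208, edgeR) was lost without the same 3 libraries (0.0969, 0.0718 and 0.156) and with those offsets (0.135). Tead2, which fell in control, was not called in either depleted line (log2 fold change -0.20 ± 0.09 and -0.06 ± 0.09, adjusted p = 0.0828 and 0.61), nor was Tead1 (0.12 ± 0.12 and -0.11 ± 0.12, adjusted p = 0.416 and 0.474). With the replicate block Tead2 was called with ERK3 depleted (-0.20, adjusted p = 0.0235, edgeR). With length and GC offsets it was called in both (-0.34 and -0.26, adjusted p = 0.00279 and 0.0208), and without the 4 libraries Tead1 was called with ERK3 depleted (0.46, adjusted p = 0.00815).

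**Figure D2:**
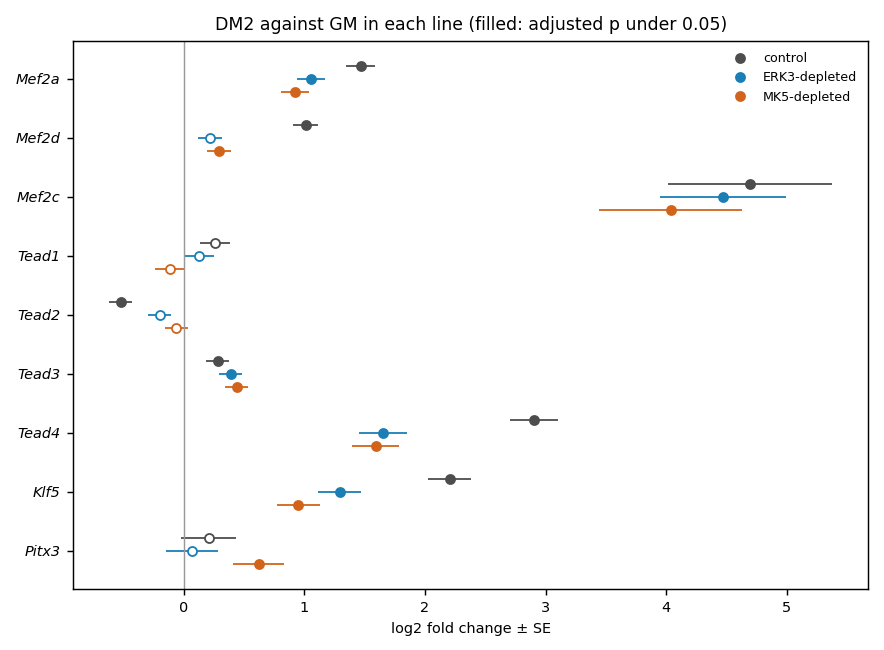
Log2 fold change of DM2 against GM with its standard error for the 9 genes (rows) in the control, ERK3-depleted and MK5-depleted lines, from edgeR; filled points passed an adjusted p under 0.05. Tead4 and Klf5 sit furthest to the right of their depleted-line points in control (2.90 and 2.21), and Tead2 lies below 0 with a filled point in control alone.

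The difference between a depleted line's response and the control response was tested as an interaction in edgeR. For ERK3, 3 of 9 genes had a smaller rise than in control: Mef2d (-0.79 ± 0.14 on the log2 scale, adjusted p = 0.00285), Tead4 (-1.25 ± 0.28, adjusted p = 0.0053) and Klf5 (-0.91 ± 0.25, adjusted p = 0.0128). Among all tested genes 28.6% were called in this contrast (14.6% higher and 14.0% lower). For MK5, 5 of 9 were called, where 18% of all tested genes were (8.54% higher and 9.48% lower). Mef2d (-0.72 ± 0.14, adjusted p = 0.0072), Tead4 (-1.31 ± 0.27, adjusted p = 0.00862), Klf5 (-1.25 ± 0.25, adjusted p = 0.00724) and Mef2a (-0.54 ± 0.16, adjusted p = 0.0307) had a smaller rise, and the change of Tead2 was less negative (0.46 ± 0.13, adjusted p = 0.0272). The 2 depleted lines share the control libraries, so the 2 counts are not independent. With reads outside genes as a covariate none of the 3 calls for ERK3 was left: Mef2d was -0.51 (adjusted p = 0.0669), Tead4 -0.88 (adjusted p = 0.141) and Klf5 -1.03 (adjusted p = 0.108). All ERK3-depleted DM2 libraries had more such reads (3.79 to 7.73%) than any GM or control DM2 library (3.22% at most). The covariate and ERK3 depletion at DM2 can therefore not be fully told apart, here or below. A lost call does not separate them. With the replicate block 5 genes were called for ERK3, with Mef2a (-0.41, adjusted p = 0.0289) and Tead2 (0.32, adjusted p = 0.0236) added. For MK5 the calls of Mef2a and Tead2 were lost when any of 8 and of 5 single libraries was left out (adjusted p up to 0.0924 and 0.0754) and with length and GC offsets (0.142 and 0.0556).

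Whether depletion changed these genes in dividing cells was asked in GM. Tead1 fell in ERK3-depleted GM and was the only 1 of the 9 genes called there, where 6.79% of all tested genes were called (3.72% higher and 3.06% lower). It stood at 88.0, 90.6 and 111.5 CPM, all below the 137, 145 and 131 CPM of control GM, a 1.43-fold lower level (log2 fold change -0.51 ± 0.12, adjusted p = 0.0229, edgeR). The call was lost without control GM library 2 or 3 or ERK3-depleted GM library 1 or 2 (adjusted p = 0.145, 0.0727, 0.148 and 0.0697). None of the 9 genes was called in MK5-depleted GM, where 8.45% of all tested genes were (4.71% higher and 3.74% lower); Mef2a and Tead2 had an unadjusted p under 0.05 (0.038 and 0.021), and DESeq2 also called none. Tead2 stood at 112, 110.3 and 109.8 CPM in ERK3-depleted and at 112, 108 and 101 CPM in MK5-depleted GM, above the 85.4 to 96.8 CPM of control GM in every library, and did not pass the test in either line (log2 fold change 0.29 ± 0.09 and 0.24 ± 0.09, adjusted p = 0.0723 and 0.128, edgeR). Pitx3 in ERK3-depleted GM (4.82 to 5.17 CPM against 2.55 to 3.68 CPM) did not overlap control either, with an adjusted p of 0.0751. DESeq2 called it and Tead2 there (adjusted p = 0.0482 and 0.0354). With the replicate number as a block, 3 of the 9 genes were called in ERK3-depleted GM: Tead1, Tead2 (0.29, adjusted p = 0.0143) and Mef2a, which was lower (-0.33, adjusted p = 0.0367). With the block Tead2 was also called in MK5-depleted GM (0.24, adjusted p = 0.0344, edgeR). Marker sums moved in GM as well. Fibroblast markers summed to 7364 to 8227 CPM with ERK3 depleted and 7417 to 8101 CPM with MK5 depleted, against 8273 to 8673 CPM in control, and 4 of 9 tested were lower in each line. Proliferation markers summed to 1488 to 1643 and 1636 to 1902 CPM against 956 to 1405 CPM, with 2 and 5 of 8 higher, and the 12 muscle markers to 2035 to 2366 and 1861 to 2265 CPM against 1408 to 1779 CPM. Their part in the GM values was not tested.

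At DM2 the depleted lines differed from control in most of the 9 genes. With ERK3 depleted 8 of 9 were called, 3 higher (Mef2c, Tead2, Pitx3) and 5 lower (Mef2a, Mef2d, Tead1, Tead4, Klf5), where 55.8% of all tested genes were called (28% higher and 27.8% lower). With MK5 depleted 7 of 9 were called, 2 higher (Tead2, Pitx3) and the same 5 lower, where 45.1% were called (22.2% higher and 22.9% lower). The medians of the 9 log2 fold changes were -0.56 and -0.47, against 0.01 and 0.00 over all tested genes. Both comparisons use the same 3 control libraries. Markers of other cells were followed in the same comparisons. Of the tested smooth muscle markers, 3 of 6 were higher with ERK3 depleted and 5 of 6 with MK5 depleted, with Myh11 and Myocd under 1 CPM in all libraries. The 8 smooth muscle markers summed to 7569 to 8762 CPM with ERK3 depleted, overlapping the 7644 to 8569 CPM of control DM2. With MK5 depleted they summed to 8575 to 10690 CPM. The 8 neural and glial markers summed to 32.1 to 78.1 CPM in control DM2, 82.2 to 150.9 CPM with ERK3 depleted and 108.4 to 158.6 CPM with MK5 depleted, with Sox10, S100b, Rbfox3 and Gfap among those under 1 CPM. The 12 muscle markers summed to 4835 to 5519 CPM with ERK3 depleted and 4605 to 5995 CPM with MK5 depleted, overlapping control DM2. Fibroblast markers summed to 9016 to 9907 CPM with ERK3 depleted and 9683 to 10450 CPM with MK5 depleted, against 10430 to 12640 CPM in control DM2, and of 9 tested 2 were higher and 4 lower, and 2 higher and 3 lower. The part of these cell markers in the results below was not tested.

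Mef2a stood at 194, 175 and 245 CPM in ERK3-depleted DM2 and at 201, 199 and 187 CPM in MK5-depleted DM2, against 305 to 378 CPM in control DM2. Every depleted library lay below every control library, a 1.665-fold lower level with ERK3 depleted (log2 fold change -0.74 ± 0.11, adjusted p = 5.05e-05, edgeR) and a 1.74-fold lower level with MK5 depleted (-0.80 ± 0.12, adjusted p = 6.44e-05). Mef2d at DM2 was 1.72-fold lower with ERK3 depleted (-0.78 ± 0.10, adjusted p = 1.05e-05) and 1.54-fold lower with MK5 depleted (-0.63 ± 0.10, adjusted p = 0.000149). Its 6 depleted libraries, at 77.1 to 111 CPM, all lay below the 146 to 155 CPM of control. Both MEF2 genes remained called under every alternative named in the closing section, at adjusted p up to 0.0303 for Mef2a and 0.0119 for Mef2d with ERK3 depleted.

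Mef2c went the opposite way in the ERK3-depleted line. It stood at 8.18, 5.40 and 4.57 CPM there, at 3.65, 2.02 and 2.37 CPM with MK5 depleted, and at 3.04, 1.62 and 2.15 CPM in control DM2. The ERK3-depleted libraries lay above all control libraries (log2 fold change 1.41 ± 0.38, adjusted p = 0.00438, edgeR; 314 against 143 reads, ratio 2.69, exact 95% interval 2.20 to 3.30), and the MK5-depleted ones overlapped them (0.24 ± 0.40, adjusted p = 0.652; ratio 1.18, 0.931 to 1.495). Both intervals cover counting error only and leave out the spread between libraries. The 2 ERK3-depleted libraries with the highest Mef2c were also the 2 with the most reads outside genes (5.55 and 7.73%). With that share as a covariate the log2 fold change was 1.31 (adjusted p = 0.111), and without the 4 DM2 libraries richest in such reads, which leaves 1 library in each depleted DM2 group, it was 1.002 (adjusted p = 0.164).

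Tead4 stood at 21.0, 20.2 and 27.9 CPM in ERK3-depleted and at 23.9, 17.6 and 34.8 CPM in MK5-depleted DM2, against 41.0 to 53.9 CPM in control. The groups did not overlap, and Tead4 was 2.06-fold lower with ERK3 depleted (-1.04 ± 0.18, adjusted p = 0.000126, edgeR) and 1.86-fold lower with MK5 depleted (-0.90 ± 0.18, adjusted p = 0.000723). With the covariate the ERK3 call ended (-0.63, adjusted p = 0.0805), and without the 4 libraries the MK5 value was -0.43 (adjusted p = 0.0354). Tead1 stood at 87.2, 95.2 and 133 CPM with ERK3 depleted and at 114, 119 and 125 CPM with MK5 depleted, all below the 160 to 174 CPM of control (-0.65 ± 0.12, adjusted p = 0.000294, and -0.47 ± 0.12, adjusted p = 0.00522). Its ERK3 value was -0.36 with the covariate (adjusted p = 0.119) and -0.31 without the 4 libraries (adjusted p = 0.0792). In ERK3-depleted DM2, Mef2a, Mef2d, Tead1, Tead3 and Tead4 each had their highest value in library 3, the one with the fewest reads outside genes.

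Tead2 stood at 109, 88.65 and 91.85 CPM in ERK3-depleted and at 108, 93.3 and 106 CPM in MK5-depleted DM2, against 71.6, 59.6 and 58.3 CPM in control. All 6 depleted libraries were above the 3 control libraries (0.61 ± 0.10, adjusted p = 5.03e-05, and 0.70 ± 0.10, adjusted p = 4.26e-05, edgeR). On the log2(TPM + 1) scale the sign turned for ERK3 (-0.06, adjusted p = 0.694, limma) and the call ended for MK5 (0.27, adjusted p = 0.106), on a scale that moved the median of all genes by -0.46 and -0.29. Tead3 overlapped control in both lines (42.2 to 51.3 and 46.3 to 56.2 CPM against 46.7 to 51.2 CPM; -0.08 ± 0.10 and 0.05 ± 0.09, adjusted p = 0.511 and 0.668).

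Klf5 stood at 41.1, 52.4 and 37.9 CPM with ERK3 depleted and at 29.1, 21.9 and 32.6 CPM with MK5 depleted, against 57.6 to 70.2 CPM in control DM2. It was 1.47-fold lower (-0.56 ± 0.17, adjusted p = 0.00904, edgeR) and 2.31-fold lower (-1.21 ± 0.17, adjusted p = 5.75e-05), with no overlap in either line. The ERK3 value was -0.68 with the covariate (adjusted p = 0.0843). Pitx3 stood at 4.67, 6.265 and 4.97 CPM with ERK3 depleted and at 6.35, 5.24 and 8.53 CPM with MK5 depleted, above the 2.95, 4.04 and 4.02 CPM of control in every library (0.53 ± 0.22, adjusted p = 0.0487, and 0.87 ± 0.21, adjusted p = 0.00335). The ERK3 call for Pitx3 was lost with DESeq2 (adjusted p = 0.05), with RLE size factors (0.0519) and without any of 13 single libraries (up to 0.207), among other settings. The MK5 call for Pitx3 remained in all 34 alternatives (adjusted p up to 0.0338).

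**Figure D3:**
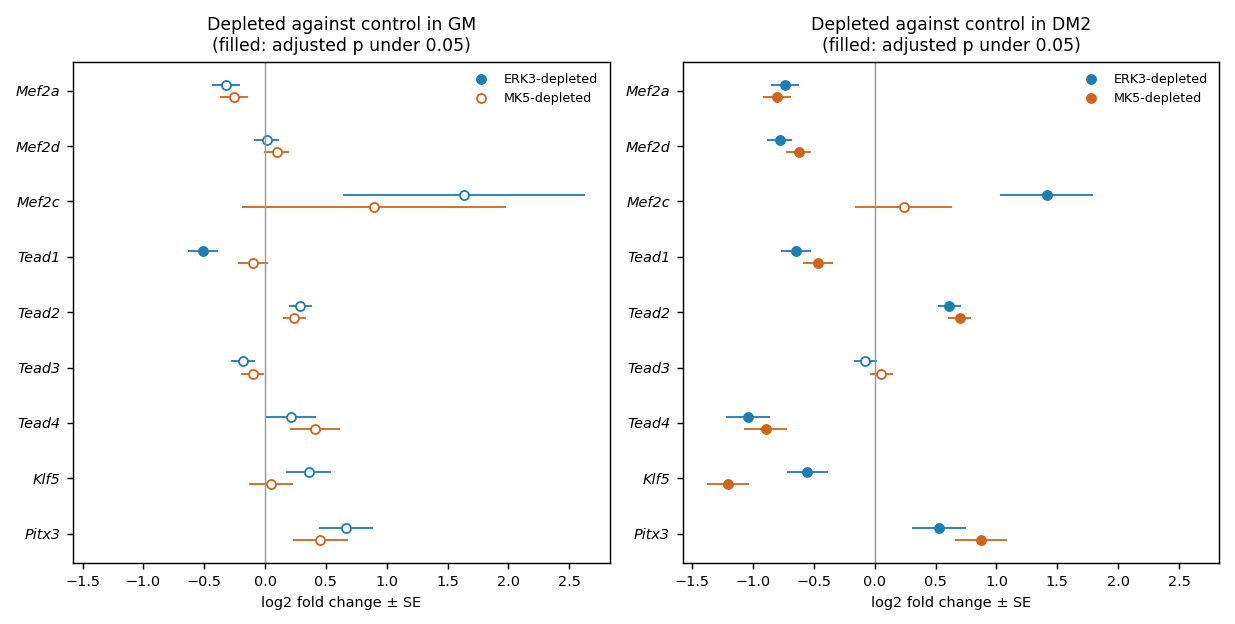
Log2 fold change of the ERK3-depleted and MK5-depleted lines against control with its standard error, in GM (left) and DM2 (right), from edgeR; filled points passed an adjusted p under 0.05. In GM the only filled point is Tead1 with ERK3 depleted (-0.51), while at DM2 5 genes have filled points left of 0 and Tead2 and Pitx3 have filled points right of 0 in both lines.

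The depleted lines were also set against each other. No gene was called in GM or at DM2 by edgeR, 0% of tested genes in each, with 1167 and 2741 genes at an unadjusted p under 0.05; DESeq2 called 2 and 213 and limma-voom 0 and 2. Of the 9 genes, Tead1 in GM (0.41 ± 0.12 higher with MK5 depleted on the log2 scale, unadjusted p = 0.00364, adjusted p = 0.411, edgeR) and Klf5 and Mef2c at DM2 had an unadjusted p under 0.05. Klf5 differed by -0.65 ± 0.17 (unadjusted p = 0.0013, adjusted p = 0.137), its MK5-depleted libraries all lying below its ERK3-depleted ones. Mef2c differed by -1.18 ± 0.38 (unadjusted p = 0.00608, adjusted p = 0.144), also without overlap. With the replicate block both were called, Klf5 at -0.66 (adjusted p = 0.0457, edgeR) and Mef2c at -1.18 (adjusted p = 0.0384). Without ERK3-depleted DM2 library 3, Klf5 (-0.72, adjusted p = 0.00982), Mef2c (-1.32, adjusted p = 0.0199), Mef2d (0.31, adjusted p = 0.0237) and Tead1 (0.41, adjusted p = 0.00717) were called. The other 7 genes differed by -0.065 to 0.343 on the log2 scale at DM2, with standard errors of 0.09 to 0.21.

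The make-up of each family was read on the TPM scale, as each member's percent of the family's summed TPM. These percents do not depend on scaling between libraries, but the sum does: on log2(TPM + 1) the median of all genes moved by -0.46 with ERK3 depleted and -0.29 with MK5 depleted at DM2. With 3 libraries against 3, the exact permutation test (two-sided) cannot go below p = 0.1, so these values describe. The summed MEF2 TPM was 50.3 ± 3.90 (SD, n = 3) in control GM and 151 ± 1.565 in control DM2, but 60.5 ± 20.1 in ERK3-depleted and 65.9 ± 6.065 in MK5-depleted DM2, with no overlap between either depleted group and control DM2 (exact p = 0.1). On scaled counts Mef2a was 1.665-fold and 1.74-fold lower there and Mef2d 1.72-fold and 1.54-fold lower. Mef2c made up 0.806 ± 0.157% of MEF2 TPM in control DM2, 9.54 ± 2.79% with ERK3 depleted and 4.63 ± 2.35% with MK5 depleted. On this scale Mef2c in MK5-depleted DM2 lay above control, while its read counts overlapped control; the mean transcript length that RSEM assigned to it was 1216 bases there, 1098 bases with ERK3 depleted and 2616 bases in control DM2, and TPM divides by that length.

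Within the TEAD family the share of Tead2 was lower and that of Tead4 higher in DM2. Tead2 made up 61.25 ± 0.830% of TEAD TPM in control GM and 41.35 ± 4.29% in control DM2, and Tead4 2.96 ± 0.314% and 18.35 ± 2.67%, with no overlap for either (exact p = 0.1 for each). With ERK3 depleted, Tead2 held 69.0 ± 1.65% in GM and 58.0 ± 4.81% at DM2, and Tead4 3.12 ± 0.379% and 9.43 ± 1.04%. With MK5 depleted, Tead2 held 65.7 ± 0.719% and 58.9 ± 1.80%, and Tead4 3.65 ± 0.581% and 9.17 ± 2.35%. In every depleted library Tead2 held a larger share than in any control library of the same medium, and at DM2 Tead4 a smaller one. The share of Tead1 at DM2 was 18.8 ± 1.14% in control, 12.7 ± 1.83% with ERK3 depleted and 12.3 ± 1.27% with MK5 depleted, again without overlap. Tead3 kept between 16.3 and 21.5% on average in all 6 groups.

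**Figure D4:**
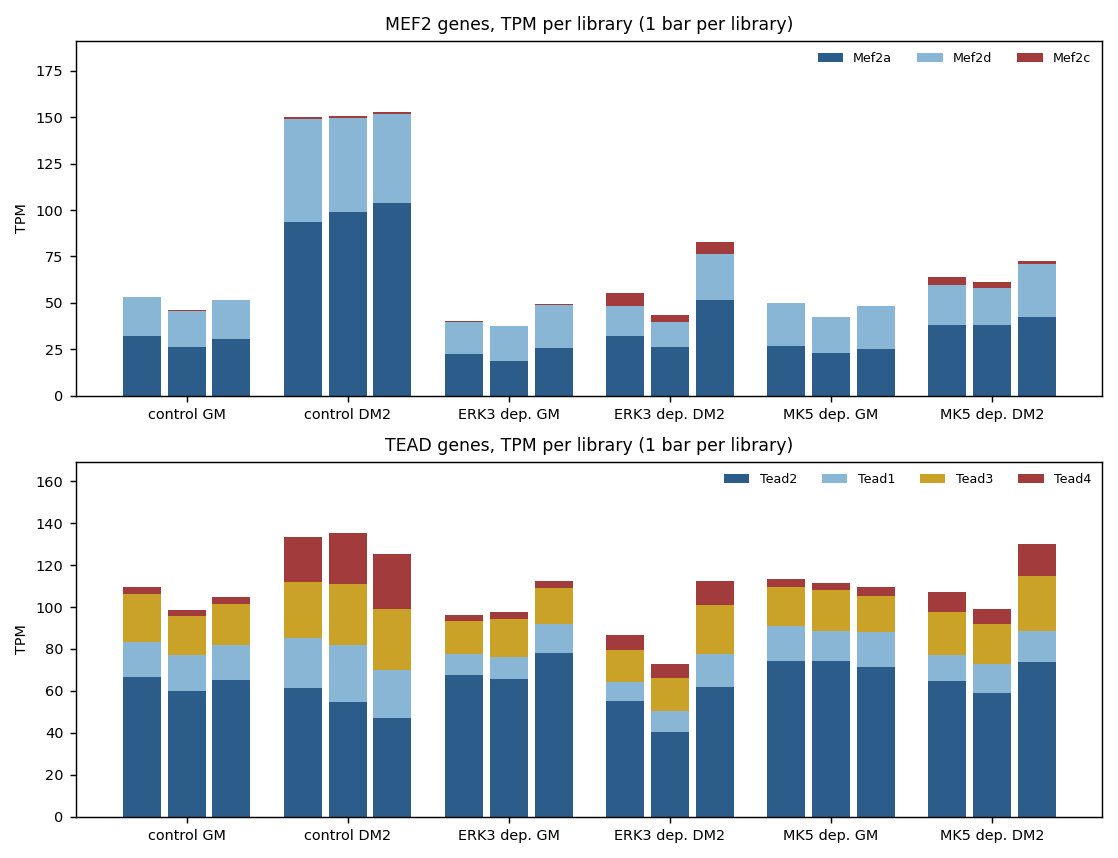
Deposited TPM of the MEF2 genes (top) and the TEAD genes (bottom), stacked, with 1 bar for each of the 18 libraries in 6 groups. Control DM2 has the tallest MEF2 bars (150 to 153 TPM), and the Tead4 segment is tallest there (15.8 to 21.1% of TEAD TPM).

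The coregulators that these factors need were followed through lists of genes. At DM2 the counts below stand beside 28% higher and 27.8% lower of all tested genes with ERK3 depleted, and 22.2% higher and 22.9% lower with MK5 depleted. These are shares of the main fit. Shares of all genes with the covariate or without the 4 DM2 libraries are not given. A change in a list count under those settings can therefore not be told from a change over all genes. Of 23 tested TEAD coactivators and Hippo pathway genes, 11 rose and 4 fell from GM to DM2 in control (median log2 fold change 0.28, against -0.02 over all tested genes). Over all tested genes 22.5% rose and 23.1% fell there. At DM2 13 were lower and 2 higher with ERK3 depleted (median -0.37, against 0.01), and 13 lower and 1 higher with MK5 depleted (median -0.29, against 0.00). Vgll4, which competes with YAP for TEAD, was lower in both lines at DM2 (-1.19 ± 0.13 and -0.98 ± 0.13, adjusted p = 4.92e-06 and 3.7e-05, edgeR), as was Lats2, the kinase that restrains YAP and TAZ (-1.05 ± 0.13 and -0.90 ± 0.13, adjusted p = 7.08e-06 and 5.58e-05). The coactivator genes were lower too: Vgll3 (-0.46 ± 0.09 and -0.41 ± 0.09), Wwtr1 (-0.37 ± 0.09 and -0.33 ± 0.09) and Yap1 (-0.23 ± 0.06 in both), at adjusted p up to 0.00713. With ERK3 depleted, Vgll3 and Wwtr1 were already lower in GM (-0.37 ± 0.09 and -0.31 ± 0.09, adjusted p = 0.0227 and 0.0489, edgeR). Their responses to differentiation medium were not called there (adjusted p = 0.601 and 0.739, edgeR). With MK5 depleted neither gene was called in GM (adjusted p = 0.319 and 0.139) or in its response (0.144 and 0.591). Wwc1, a scaffold of the Hippo kinases at 0.951 CPM on average, was higher at DM2 (1.88 ± 0.37 and 1.54 ± 0.38, adjusted p = 0.000386 and 0.0034). Without the 4 DM2 libraries 9 genes of the list were lower with ERK3 depleted and 12 with MK5 depleted, and 6 and 13 with the covariate. On log2(TPM + 1), where most called genes were lower, 20 of 21 were lower in each line.

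Of 20 tested YAP and TEAD target genes, 10 were lower and 5 higher at DM2 with ERK3 depleted and 8 lower and 5 higher with MK5 depleted (medians -0.28 and -0.17). With ERK3 depleted 6 were lower and 3 higher with the covariate (median -0.03), and 6 lower and 5 higher without the 4 DM2 libraries (median -0.06). On log2(TPM + 1) 14 and 11 of 20 were lower and 1 higher in each line. Crim1 was lower in both lines (-1.33 ± 0.11 and -1.17 ± 0.11, adjusted p = 1.22e-06 and 2.85e-06, edgeR). Birc5, a survivin gene of dividing cells, was higher in both (0.94 ± 0.15 and 1.04 ± 0.15, adjusted p = 4.61e-05 and 5.2e-05). The 8 proliferation markers, of which it is one, summed to 581 to 629.7 CPM in control DM2, 670 to 1022 CPM with ERK3 depleted and 947 to 1188 CPM with MK5 depleted, in the same groups where Mef2a, Mef2d, Tead4 and Klf5 were lower and Tead2 higher; their part in those differences was not tested.

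Of 26 tested MEF2 corepressors and activating kinases, 9 were higher and 5 lower at DM2 with ERK3 depleted, and 6 higher and 5 lower with MK5 depleted (medians 0.09 and 0.10), shares near or below those of all tested genes apart from the higher ones with ERK3 depleted. With the covariate 1 was higher and 2 lower with ERK3 depleted, and without the 4 DM2 libraries 2 and 3. On log2(TPM + 1) 2 were higher and 16 lower of 24 with ERK3 depleted, and 0 and 11 with MK5 depleted, so the split of this list turned with the scale. Trim72, a muscle membrane repair gene placed in this list (-1.79 ± 0.33 and -1.06 ± 0.31, adjusted p = 0.000201 and 0.0104), and Camk2a, a calcium-dependent kinase (-1.39 ± 0.15 and -1.26 ± 0.15, adjusted p = 4.54e-06 and 1.6e-05), were lower. Of the class IIa deacetylases, Hdac4 was higher with ERK3 depleted (99.5, 123 and 67.8 CPM against 64.8, 75.3 and 66.5 CPM; 0.49 ± 0.14, adjusted p = 0.00727), with its library 3 inside the control range. Hdac9 was higher with MK5 depleted (16.9, 14.85 and 12.7 CPM against 10.9, 3.57 and 4.40 CPM; 1.24 ± 0.36, adjusted p = 0.00929). Hdac5 was not called in either line. Hdac9 already lay above control in MK5-depleted GM (4.95 to 6.53 against 1.76 to 3.41 CPM; 1.19 ± 0.40, adjusted p = 0.0769, edgeR). Its response there was not called (0.05 ± 0.55, adjusted p = 0.963). Between the depleted lines at DM2 neither Hdac4 nor Hdac9 was called (adjusted p = 0.168 and 0.416, edgeR).

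Of 24 tested muscle MEF2 target genes, 23 rose and 1 fell from GM to DM2 in control, 24 rose with ERK3 depleted and 23 rose with MK5 depleted, with medians of 4.07, 3.00 and 3.39 on the log2 scale. Over all tested genes 22.5, 28.9 and 24.6% rose in these lines, and 23.1, 26.2 and 24.8% fell. At DM2 9 were lower and 3 higher than control with ERK3 depleted, and 9 lower and 4 higher with MK5 depleted (medians -0.35 and -0.25). Klhl41, a sarcomere-stabilising protein gene (-1.88 ± 0.26 and -1.67 ± 0.26, adjusted p = 2.25e-05 and 0.000128), and Casq2, a calcium store protein gene (-1.81 ± 0.33 and -1.59 ± 0.32, adjusted p = 0.000256 and 0.00111), were lower. Xirp2, which encodes an actin-binding protein, was higher (2.62 ± 0.56 and 2.22 ± 0.56, adjusted p = 0.000766 and 0.00432). Without the 4 DM2 libraries 4 and 2 targets were lower, and with the covariate 1 and 8. On log2(TPM + 1) 14 and 12 of 21 were lower and none higher. Of 12 tested muscle genes with MCAT elements, 4 were lower and 3 higher at DM2 with ERK3 depleted and 1 lower and 2 higher with MK5 depleted, and none was lower in either line without the 4 libraries. The log2(TPM + 1) scale gave 7 and 4 of 10 lower and none higher.

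Of 26 tested partner myogenic transcription factors, 10 were lower and 4 higher at DM2 with ERK3 depleted, and 11 lower and 2 higher with MK5 depleted. With ERK3 depleted 6 were lower and 1 higher with the covariate, and 6 lower and 3 higher of 28 without the 4 DM2 libraries, where MK5 gave 8 and 3. The log2(TPM + 1) scale gave 20 and 14 of 24 lower. Myod1 rose in control from 60.8 to 89.1 CPM in GM to 183 to 218 CPM in DM2 and was not called at DM2 in either depleted line (-0.12 ± 0.13 and -0.07 ± 0.13, adjusted p = 0.427 and 0.684, edgeR). Already in GM it was higher than control with ERK3 and with MK5 depleted (0.66 ± 0.13 and 0.61 ± 0.13, adjusted p = 0.0123 and 0.0108, edgeR). Its response to differentiation medium was smaller than in control in both lines (-0.78 ± 0.18 and -0.67 ± 0.18, adjusted p = 0.00632 and 0.0208, edgeR). Myog stood at 493 to 670 CPM in control DM2, 294 to 499 CPM with ERK3 depleted and 370 to 623 CPM with MK5 depleted, and was not called there either (adjusted p = 0.0913 and 0.436). The Myog response was smaller than in control with ERK3 depleted (-1.72 ± 0.48, adjusted p = 0.0162, edgeR) and not called with MK5 depleted (-0.72 ± 0.48, adjusted p = 0.296). In GM every ERK3-depleted library already lay above control for Myog (25.9 to 42.9 against 10.1 to 22.2 CPM), without a call (adjusted p = 0.0804, edgeR). MK5-depleted GM overlapped control (11.7 to 29.9 CPM, adjusted p = 0.547). The smaller Myog response with ERK3 depleted therefore holds the GM difference as well as the uncalled DM2 difference. Tcf12, an E-protein gene whose product pairs with MyoD, was lower (-0.95 ± 0.11 and -0.72 ± 0.11, adjusted p = 5.35e-06 and 9.1e-05), and Tcf4, another E-protein gene, was higher with ERK3 depleted (1.09 ± 0.21, adjusted p = 0.000366). Of 11 other Kruppel-like factors, 2 were lower and 2 higher with ERK3 depleted and 1 lower and 1 higher with MK5 depleted, and Klf3 was lower in both (-0.91 ± 0.13 and -0.95 ± 0.13, adjusted p = 1.8e-05 and 3.33e-05).

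As a description over the 18 libraries, which share 6 groups of 3, the genes whose log2 CPM ran most alike were named. For Mef2a these were Stk17b (Pearson r = 0.99) and Vgll3 (0.98), for Mef2d Sik1 and Tgfbrap1 (0.98 each), and for Mef2c Ttn and Gdf11 (0.96 each). For Tead4 Cobl was among them (0.98), for Tead2 they were Mlf2 (0.965) and Ube2m (0.96), for Tead3 Srf (0.96) and Plekho2 (0.94) and for Tead1 Lman1 (0.95) and Atf7 (0.94). For Klf5 Socs7 was among them (0.98), and for Pitx3 they were Ebna1bp2 and Smn1 (0.88 each). Among the 9 genes, Mef2a and Tead4 (0.94), Tead4 and Klf5 (0.91) and Mef2a and Klf5 (0.89) ran closest, Tead2 ran opposite to Mef2d (-0.77) and Mef2a (-0.77), and Pitx3 was nearly flat against Mef2a (0.02).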

How the data were processed

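Polyadenylated RNA from 18 C2C12 libraries was sequenced with a stranded kit, per the labels' protocols. The submitters' processing notes name STAR 2.5.1b, RSEM 1.2.28, bcl2fastq 2.17 and the GRCm38 build. The authors deposited 2 kinds of file for each library: STAR read counts per gene for each strand setting, and RSEM tables per gene with expected counts and TPM (a per-length relative abundance). Counts of the reverse strand were used, to which 92.8386 to 95.3345% of stranded gene reads belonged. STAR's 4 summary lines (unmapped, mapped to several places, outside genes and ambiguous reads) stayed out of library sizes and tests and made up 21.6983 to 35.8048% of reads.

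Of 50600 gene identifiers, 50376 matched GENCODE M21, and 13939 passed edgeR's filter on low counts. Counts were scaled by TMM and fitted with 6 group means by edgeR 4.0.16 (robust quasi-likelihood test, R 4.3.3), with Benjamini-Hochberg adjustment over all tested genes within each of 11 contrasts and a threshold of 0.05. The standard error was the log2 fold change divided by the square root of the F statistic. The test was checked on simulated counts with known changes. Alternatives used limma 3.58.1, DESeq2 1.42.0, the deposited expected counts rounded to whole numbers, and the deposited TPM on log2(TPM + 1) and log2(TPM + 0.1). Libraries of a group differed by at least 7.98 times the counting variance, so none was a copy. The labels give the groups the same replicate numbers without saying what a number shares. All 3 pairs of same-numbered libraries deviated together (correlations over 0.1) between control and ERK3-depleted in GM (0.155 to 0.2902) and DM2 (0.1084 to 0.2048), control and MK5-depleted GM (0.1423 to 0.1899), ERK3-depleted GM and DM2 (0.1564 to 0.2911), and both depleted lines at DM2 (0.2815 to 0.4975). In the other 4 comparisons of groups 1 or more pairs did not. The numbers were therefore taken to pair the samples in those 5 comparisons, and a fit with the number as a block is printed where it changed a call. Over all groups, 17 of 18 libraries deviated on average most like libraries of their own number. The main fit has no such block, so its calls leave this sharing out.

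The 9 genes and the gene lists were chosen with earlier results of these data known. Named were all 9 genes, from each list up to 3 called genes with the largest change in a contrast, a fixed few context genes (among them Myod1, Myog, Yap1, Wwtr1, Vgll3, Hdac4, Hdac5 and Hdac9), and for each of the 9 the 2 genes of at least 5 CPM with the highest correlation. A few genes that this rule or a marker list would name are not reported here. Shares of transcripts within a gene were planned and not made, because the RSEM tables used here are per gene.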

Additional observations from a re-analysis of the deposited data

Results flagged for a closer look

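The response to differentiation medium differed between a depleted line and control for the following genes, by the interaction test in edgeR; values are differences of log2 fold changes, depleted minus control. For Mef2d the difference was -0.79 with ERK3 depleted (adjusted p = 0.00285) and -0.72 with MK5 depleted (adjusted p = 0.0072). For Tead4 it was -1.25 (adjusted p = 0.0053) and -1.31 (adjusted p = 0.00862), and for Klf5 -0.91 (adjusted p = 0.0128) and -1.25 (adjusted p = 0.00724). For Mef2a it was -0.54 (adjusted p = 0.0307) and for Tead2 0.46 (adjusted p = 0.0272), both with MK5 depleted. Both lines were set against the same 6 control libraries.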

How the results depend on the processing

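Each of the 99 gene results was refitted under 34 alternatives, 1 of them (leaving out 4 DM2 libraries) chosen after seeing the data. Leaving out single libraries kept direction and call in 1709 refits, lost the call in 40, gained one in 16 and turned the sign in 17. DESeq2 kept 95 of 99 results. TPM is not scaled between libraries, and on log2(TPM + 1) the median of all genes moved by -0.46 and -0.29 for ERK3-depleted and MK5-depleted against control at DM2. The share of called genes that were higher was 13.1% and 15.2% there, against 3905 higher and 3871 lower of 7776 on counts for ERK3.

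The number of the 9 genes called moved as follows. From GM to DM2 with MK5 depleted it was 4 on both TPM scales. For ERK3-depleted against control in GM it was 3 with DESeq2, without a filter and with only the libraries compared, 0 on both TPM scales, 2 with reads outside genes as a covariate, 0 at an adjusted p under 0.01 and 4 without the 4 libraries. At DM2 it was 3 with the covariate and 5 without the 4 libraries. For MK5-depleted against control in GM it was 1 with only the libraries compared and 1 without the 4 libraries. For MK5-depleted against ERK3-depleted it was 1 without a filter in GM, and at DM2 1 with DESeq2 and 2 without a filter. For the response with ERK3 depleted it was 5 on log2(TPM + 1) and 0 with the covariate, and with MK5 depleted 3 with length and GC offsets and 3 at an adjusted p under 0.01. The cause was not tested. Single libraries left out gave 0 to 3 for ERK3-depleted against control in GM, 0 to 4 for the depleted lines against each other at DM2, and 3 to 6 for each response.

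With the replicate number as a block the count was 3 for ERK3-depleted and 1 for MK5-depleted against control in GM, 2 between the depleted lines at DM2 and 5 for the response with ERK3 depleted. With the block and the length and GC offsets it was 2, 2 and 2 for the first 3 of these. The block moved no other count by over 1.5 times. It added the 9 calls given in the report and changed no other of the 99.

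Signs turned as follows, in log2 units. On log2(TPM + 1) and log2(TPM + 0.1) the values were 1.29 and 1.0572 for the ERK3 response of Mef2c, 0.78 and 1.07 for its MK5 response, -0.15 and -0.16 for Mef2d from GM to DM2 with ERK3 depleted, and -0.0604 and -0.0634 for Mef2d in ERK3-depleted against control GM. They were -0.0646 and -0.066 for Tead2 in ERK3-depleted against control DM2 and -0.20 and -0.21 for its ERK3 response. They were -0.35 and -0.36 for Tead3 in MK5-depleted against control DM2, -0.40 and -0.41 for its ERK3 response, -0.2056 and -0.2119 for its MK5 response, and -0.22 and -0.27 for Pitx3 from GM to DM2 with ERK3 depleted. Tead1 from GM to DM2 with ERK3 depleted was -0.0014 on log2(TPM + 0.1). Limma-voom gave 0.63 for the ERK3 response of Mef2c. For the depleted lines against each other the TPM scales gave 0.1645 and 0.1699 for Mef2a at DM2 and 0.0605 and 0.0613 for Tead2 in GM. Unstranded counts gave -0.0092 and -0.0126 for the 2 Mef2d results. Length and GC offsets, without and with the block, gave -0.0713 and -0.0754 for Tead1 and -0.0338 and -0.0328 for Pitx3 from GM to DM2 with ERK3 depleted, and -0.0086 and -0.0084 for Tead3 in MK5-depleted against control DM2, and -0.0375 and -0.0346 for Mef2a between the depleted lines in GM. The covariate gave 0.12 for the ERK3 response of Tead1 and 0.0858 for Tead3 in ERK3-depleted against control DM2. Between the depleted lines at DM2 it gave -0.0636 for Mef2d, -0.0133 for Tead1 and -0.1548 for Tead4. Without the 4 libraries Tead1 there was -0.0810, the 2 ERK3 results were 0.19 and 0.0587, Tead2 from GM to DM2 with MK5 depleted was 0.0071 and Pitx3 with ERK3 depleted -0.0253.

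Leaving out single libraries turned the sign of results that had not passed the test. The ranges were -0.0367 to 0.50 for Mef2c in MK5-depleted against control DM2, -0.95 to 0.30 for the ERK3 response of Mef2c, and -0.0566 to 0.0498 for Mef2d in ERK3-depleted against control GM. From GM to DM2 they were -0.0929 to 0.2548 for Tead1 and -0.078 to 0.162 for Pitx3 with ERK3 depleted, and -0.1092 to 0.01 for Tead2 with MK5 depleted. They were -0.0371 to 0.1245 for Tead3 in MK5-depleted against control DM2, -0.1589 to 0.2339 for Klf5 in MK5-depleted against control GM, and -0.2909 to 0.0034 for the ERK3 response of Pitx3. Between the depleted lines they were -0.0370 to 0.1286 for Mef2a in GM, and -0.1590 to 0.1078 for Mef2a and -0.1488 to 0.3612 for Tead4 at DM2. Depth limits Mef2c most, with 5 reads in control GM. Shares of transcripts within a gene were not run.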

Other observations

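The mean transcript length that RSEM assigned to a gene also differed between groups for several of the 9 genes, as values of the deposited per-gene tables. For Mef2a it was 5185 bases in control GM and 4815 bases in control DM2, but 5460 bases in ERK3-depleted and 5402 bases in MK5-depleted DM2. For Mef2d it was 4510 bases in control GM, 4139 bases in control DM2, and 4679 and 4595 bases in the depleted DM2 groups. For Tead4 it was 2336 bases in control GM, 2410 bases in control DM2, and 1989 and 2112 bases in the depleted DM2 groups. For each of these 3 genes neither depleted DM2 group overlapped control DM2 (exact permutation p = 0.1, two-sided, the smallest that 3 against 3 allows).

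Of 12 tested genes of muscle redox control listed beside Pitx3, 4 rose and 4 fell from GM to DM2 in control, and 2 were higher and 3 lower than control at DM2 in each depleted line. Over all tested genes 22.5% rose and 23.1% fell in control. At DM2 28% of all tested genes were higher and 27.8% lower with ERK3 depleted, and 22.2% and 22.9% with MK5 depleted.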
